A study of Homo sapiens with 6 samples.

Results

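Cell cycle and mitosis genes were examined in SH-SY5Y cells with and without a DNAJC12 knockout. The set was a list of 57 genes, taken by symbol from the gene table, and 56 of them had a row among the table's 20668 genes. They were read in 3 groups by the stage at which they act: 16 of 17 listed genes of G1 control, 14 of S phase and 26 of mitosis. The gene without a row was CCND2, cyclin D2, and the transcript files listed it at 0 TPM (a level corrected for transcript length) in all 6 libraries. All 56 passed the filter on low counts, with mean levels of 8.01 to 616 CPM (counts scaled to library size, with TMM factors), so that none entered the test through 1 genotype alone.

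SH-SY5Y is an established human neuroblastoma line with features of sympathetic neuronal precursors. The study compared untreated wild-type (WT) cells with untreated cells of the same line in which CRISPR/Cas9 had been used to knock out DNAJC12, an HSP70 co-chaperone of the aromatic amino acid hydroxylases, and its stated question was cell invasion. Each genotype had 3 libraries of total RNA depleted of ribosomal RNA. The labels do not say whether these were separate cultures, or whether the knockout was 1 clone or a pool, so the p-values rest on a spread between libraries that may be technical.

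Progress through the cell cycle is driven by cyclins that activate cyclin-dependent kinases (CDKs). In G1, D cyclins with CDK4 or CDK6, and then E cyclins with CDK2, phosphorylate the retinoblastoma protein RB1, which releases E2F transcription factors that switch on the genes of DNA replication. Later the DREAM complex gives way to MYBL2 and FOXM1, which switch on the genes of mitosis. In neuroblastoma, high cyclin D1 and CDK4 are well-known features.

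Some of the members' promoters carry letters known from these programmes, and short stretches are shown because such letters were found at different shares in the S phase and mitotic groups. RefSeq windows of GRCh38.p14, running from 250 bases before to 50 bases after each annotated start, were matched for 45 members, which had 66 windows between them. An E2F motif was taken as TTTCCCGC, TTTCGCGC, TTTGCCGC or TTTGGCGC on either strand, and matches on opposite strands can overlap. The stretches below are the 120 bases before the start, 5′ to 3′ along the gene, with E2F matches in capitals.
MCM6, chr2:135876444-135876563, minus strand: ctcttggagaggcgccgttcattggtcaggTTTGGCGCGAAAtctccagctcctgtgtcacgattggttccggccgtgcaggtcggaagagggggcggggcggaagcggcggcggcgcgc
PCNA, chr20:5126623-5126742, minus strand: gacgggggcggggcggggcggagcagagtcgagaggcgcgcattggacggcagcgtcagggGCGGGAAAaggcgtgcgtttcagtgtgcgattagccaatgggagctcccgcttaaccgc
E2F1, chr20:33686386-33686505, minus strand: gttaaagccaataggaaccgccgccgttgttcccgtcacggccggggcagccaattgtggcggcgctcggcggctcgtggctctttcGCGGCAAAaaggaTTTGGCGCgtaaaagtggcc
E2F2, chr1:23531234-23531353, minus strand: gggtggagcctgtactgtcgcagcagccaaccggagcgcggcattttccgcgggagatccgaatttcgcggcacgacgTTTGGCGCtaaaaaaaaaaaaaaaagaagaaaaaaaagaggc
In MCM6 the capitals cover 2 overlapping matches on opposite strands, which begin 90 bases before the start. In E2F1 there were 2 separate matches and in PCNA and E2F2 1 each. PCNA and MCM6 encode parts of the replication machinery, and E2F1 and E2F2 are E2F factors whose own promoters hold the motif.

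The motif TTTGAA, the core of the cell cycle genes homology region (CHR) through which DREAM and the MYBL2 complex act, was searched on both strands in the same windows. It cannot overlap the E2F letters. In the 4 mitotic stretches below it is in capitals.
CDC20, chr1:43358861-43358980, plus strand: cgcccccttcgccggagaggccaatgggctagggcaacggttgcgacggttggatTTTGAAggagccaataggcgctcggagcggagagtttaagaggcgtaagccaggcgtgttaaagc
PLK1, chr16:23678769-23678888, plus strand: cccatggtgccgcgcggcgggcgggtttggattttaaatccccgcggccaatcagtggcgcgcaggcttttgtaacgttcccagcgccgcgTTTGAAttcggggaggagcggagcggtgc
CCNB2, chr15:59105026-59105145, plus strand: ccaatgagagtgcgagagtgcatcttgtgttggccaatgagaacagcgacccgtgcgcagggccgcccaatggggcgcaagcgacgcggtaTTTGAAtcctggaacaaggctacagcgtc
KIF23, chr15:69414229-69414348, plus strand: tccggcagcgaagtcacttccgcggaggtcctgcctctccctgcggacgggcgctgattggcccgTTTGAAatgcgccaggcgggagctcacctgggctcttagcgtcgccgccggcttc
CDC20 activates the anaphase-promoting complex, PLK1 is a mitotic kinase, CCNB2 is a B cyclin and KIF23 is a kinesin of cytokinesis. Their CHR matches lay 65, 29, 29 and 55 bases before the start.

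Over the group, the CHR letters were in 15 of 29 windows of mitotic members (51.7%), in 1 of 19 of S phase members (5.26%) and in 1 of 18 of G1 members (5.56%), against 15.2% of all 35116 windows in the table. The E2F letters were in 8 of 19 S phase windows (42.1%), 4 of 18 G1 windows (22.2%) and 4 of 29 mitotic windows (13.8%), against 3.31% of all windows. CCAAT, the letters bound by NF-Y and searched on both strands and able to share an end base with either motif, were in 22 of 29 mitotic windows (75.9%), 14 of 19 S phase windows (73.7%) and 8 of 18 G1 windows (44.4%), against 34.6% of all. These are matches of letters and not measured binding. Several windows of 1 gene can overlap, so the windows are not independent.

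The depth was similar in all libraries, with totals of 19321842 to 21869659 counts. DNAJC12 itself had a mean of 21.5 CPM in WT (SD 1.5, n = 3) and of 5.54 CPM in the knockout (SD 0.60, n = 3), so its RNA was lower in each knockout library and part of it remained. All 10 sympathoadrenal markers examined were present in both genotypes, summing to 4238 to 4387 CPM in WT and 4074 to 4148 CPM in the knockout; 3 were higher and 5 lower in the knockout. Of 6 markers of a mesenchymal-like state 5 were tested, of which 4 were higher and 1 lower, and their sum was 2445 to 2661 CPM in WT and 3746 to 3909 CPM in the knockout; PRRX1 had no row. The part of these changes in the results below was not tested. In bulk RNA, fewer cells in a stage and less RNA per cell cannot be told apart.

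Of the 56 members, 3 were higher and 8 lower in the knockout and 45 did not pass (edgeR's quasi-likelihood test, Benjamini-Hochberg adjusted p below 0.05). The share called, 19.6%, stood beside 26% of all 16403 genes tested, of which 14.5% were higher and 11.5% lower. With library size alone as the scaling, 2055 of all genes were higher and 2438 lower, in place of 2383 and 1887, so the balance of the whole comparison depends on scaling. The members' median log2 fold change (knockout against WT) was -0.09 and their median absolute change 0.14, beside 0.22 for all genes tested. The 3 knockout values lay wholly above the 3 WT values for 3 members and wholly below for 10, or 13 of 56, beside 41.7% of all genes.

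**Figure D1:**
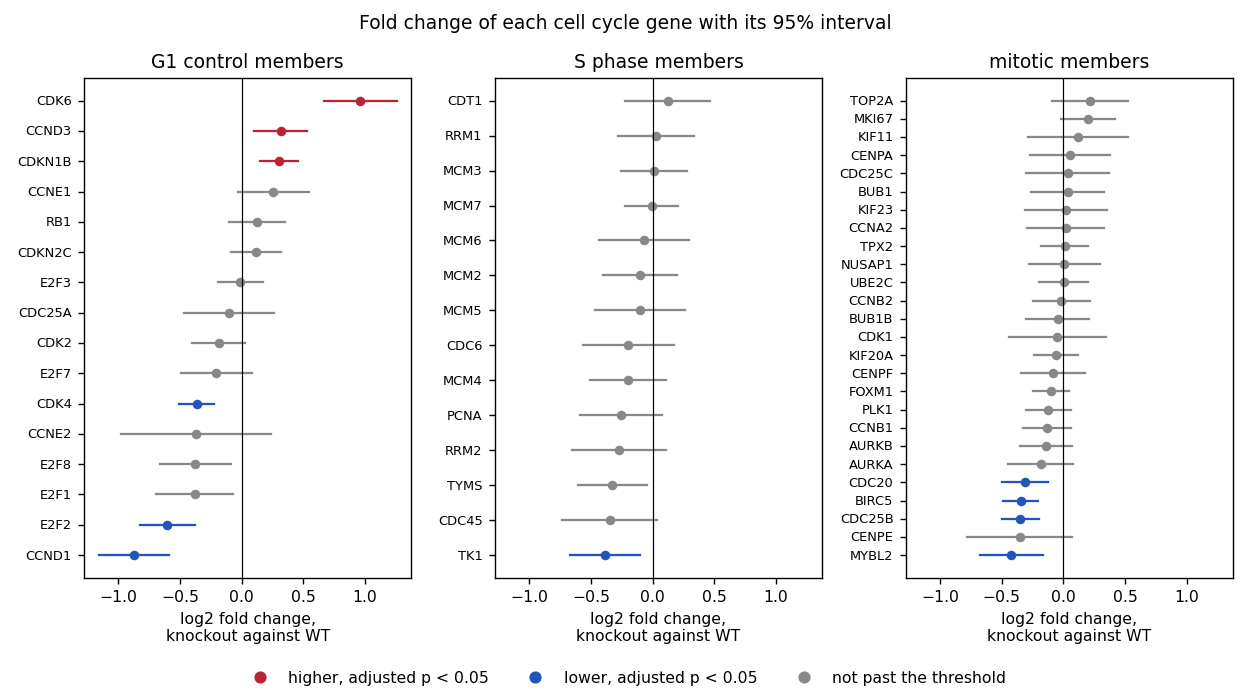
Log2 fold change, knockout against WT, of the 56 tested members in 3 panels by stage, with bars for the 95% interval of edgeR's fit. G1 control members run from -0.88 for CCND1 to 0.96 for CDK6, while all 14 S phase and all 26 mitotic members lie between -0.42 and 0.21.

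The G1 control group held the largest changes of the 3 groups in both directions. Cyclin D1 and CDK4 fell while CDK6, cyclin D3 and the CDK inhibitor p27 (CDKN1B) rose, and the factor E2F2 fell. In all, 3 of 16 tested members were higher, 3 lower and 10 did not pass. That is 37.5% called, beside 26% of all genes, of which 14.5% were higher and 11.5% lower. With library size alone the split was 2 higher and 5 lower.

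CCND1 (chr11:69641156-69654474), cyclin D1, which activates CDK4 and CDK6 in response to growth signals, was at 620.1, 805 and 969 CPM in WT replicates 1, 2 and 3. It was at 421, 442 and 442 CPM in the knockout. Coordinates here and below are RefSeq's on GRCh38.p14. The WT libraries were widely spread and the knockout libraries close together, and the groups did not overlap. The change was -0.88 ± 0.13 on the log2 scale (SE, n = 3 per group, edgeR adjusted p = 0.000488), to 0.545 of the WT level. The gene shares exon sequence, on the opposite strand, with LTO1, which averaged 19.1 CPM.

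CCND3 (chr6:41934933-42050035), cyclin D3, is a second D cyclin with the same partner kinases. Its levels were 26.4, 29.4 and 30.9 CPM in WT and 37.3, 37.1 and 33.4 CPM in the knockout. All knockout values were above all WT values, but the gap between the nearest libraries was small. Its rise of 0.31 ± 0.10 (edgeR adjusted p = 0.0343) passed in 7 of 14 alternative analyses, and it was lost with any one of 5 libraries left out (adjusted p of up to 0.142, without WT replicate 1). The gene has 2 named pseudogenes and shares exon sequence with AL513008.1 on the opposite strand, so its share of reads is uncertain.

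CDK4 (chr12:57747727-57752310), a D cyclin partner kinase, was at 412, 415 and 454 CPM in WT and 343, 316 and 335 CPM in the knockout. Every knockout library was below every WT library. The change was -0.37 ± 0.06 (edgeR adjusted p = 0.00158). CDK4 shares exon sequence with TSPAN31 on the opposite strand and has 1 named pseudogene. The libraries were stranded, but no source used here gives the strand setting of the authors' counting. Whether reads of such opposite-strand partners were kept apart is therefore not known.

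CDK6 (chr7:92604921-92836573), the other partner kinase, moved the opposite way. It was at 244, 237 and 188 CPM in WT and 352, 509 and 440.1 CPM in the knockout, with WT replicate 3 the lowest and knockout replicate 2 the highest. The groups were well apart. The rise was 0.96 ± 0.13 (edgeR adjusted p = 0.000336), to 1.95 times the WT level. CDK6 shares exon sequence with AC002454.1 on the opposite strand.

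Per transcript length the 2 kinases were far from equal. CDK4 stood at 479 ± 5.2 TPM in WT and 359 ± 14 TPM in the knockout (SD, n = 3), and CDK6 at 28.1 ± 4.5 and 52.7 ± 10.0 TPM. The ratio of CDK6 to CDK4 in TPM stood at 0.0661, 0.0625 and 0.0474 across WT and at 0.117, 0.183 and 0.143 across the knockout. CDK4 thus remained the more abundant transcript in every library. The summed level of both kinases was 504, 512 and 505 TPM in WT and 407, 406 and 423 TPM in the knockout, lower in every knockout library.

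For the cyclins, CCND1 was at 275 ± 53 TPM in WT and 143 ± 5.7 TPM in the knockout, and CCND3 at 23.4 ± 2.5 and 27.9 ± 1.9 TPM. The ratio of CCND1 to CCND3 was 10.5, 10.8 and 13.9 in WT and 4.70, 5.17 and 5.55 in the knockout. Cyclin D1 remained the main D cyclin transcript in both genotypes. These sums and ratios were chosen after the values had been seen and carry no test.

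**Figure D2:**
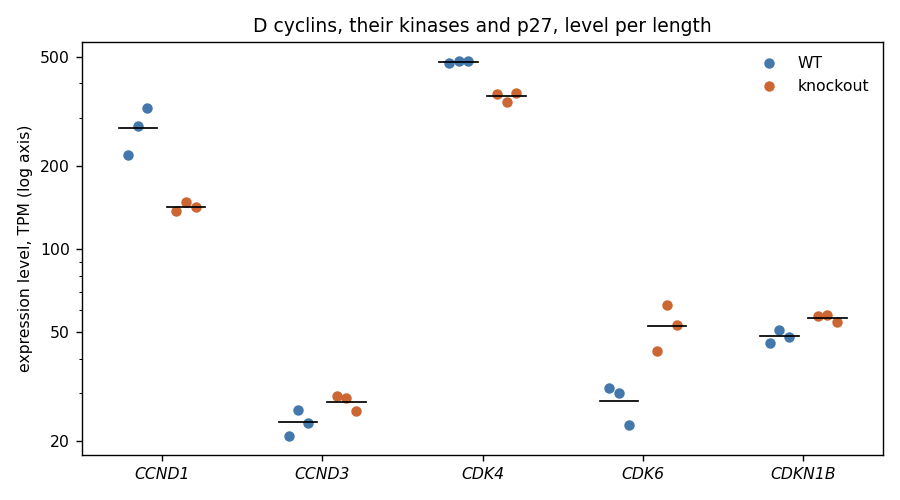
Levels in TPM on a log axis of CCND1, CCND3, CDK4, CDK6 and CDKN1B, with 1 point per library and a line at the mean of the 3 libraries. CDK6 rises from a mean of 28.1 to 52.7 TPM but stays below CDK4 in both genotypes.

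The transcripts of CDK6 were not moved evenly in the authors' estimates. CDK6-202 was listed at 3.82, 3.86 and 0 TPM in WT and at 23.1, 23.2 and 31.5 TPM in the knockout, higher in every knockout library. CDK6-201 was at 27.4, 26.2 and 22.9 TPM in WT and 19.0, 38.2 and 20.8 TPM in the knockout, where the groups overlapped. These splits between overlapping transcripts are estimates and were not tested. For CCND1, 95.4% of the gene's TPM belonged to 1 transcript, CCND1-201, which fell from 206, 268 and 311 TPM to 131, 140.2 and 139 TPM.

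Among the brakes, CDKN1B (p27, chr12:12717368-12722369), an inhibitor of CDK2 complexes, was at 74.9, 82.1 and 79.4 CPM in WT and 98.1, 98.2 and 94.9 CPM in the knockout. The groups did not overlap and each was narrow. The rise was 0.30 ± 0.07 (edgeR adjusted p = 0.00801). The other 2 brakes did not pass: CDKN2C (p18) had a log2 fold change of 0.11 (95% interval -0.09 to 0.31) and RB1 one of 0.12 (-0.10 to 0.35).

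Of the 5 E2F factors, 1 was lower and 4 did not pass. E2F2 (chr1:23505212-23531233), an activating E2F, was at 43.7, 48.8 and 54.9 CPM in WT and 30.6, 34.4 and 32.0 CPM in the knockout, with no overlap. The change was -0.60 ± 0.10 (edgeR adjusted p = 0.00126), to 0.658 of the WT level. E2F1, whose promoter stretch holds 2 E2F matches, was at 42.7, 53.4 and 66.0 CPM in WT and 38.7, 45.1 and 40.5 CPM in the knockout. Its groups overlapped and its value of -0.38 had an adjusted p of 0.0711, which passed in 5 of the alternatives. E2F8, a repressive E2F, was below every WT library in every knockout library (9.73, 9.29 and 9.46 against 7.18, 7.80 and 6.95 CPM), with a value of -0.38 and an adjusted p of 0.0547. E2F3 and E2F7 had values of -0.01 and -0.21 and did not pass.

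The E cyclins and their partners gave no call. CCNE1 had a log2 fold change of 0.26 (95% interval -0.03 to 0.54), CCNE2 -0.37 (-0.98 to 0.23), CDK2 -0.19 (-0.40 to 0.03) and the CDK-activating phosphatase CDC25A -0.10 (-0.47 to 0.26). CCNE2 was low and varied widely between replicates. It was at 6.34, 10.3 and 10.5 CPM in WT and 4.38, 9.54 and 7.0 CPM in the knockout.

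**Figure D3:**
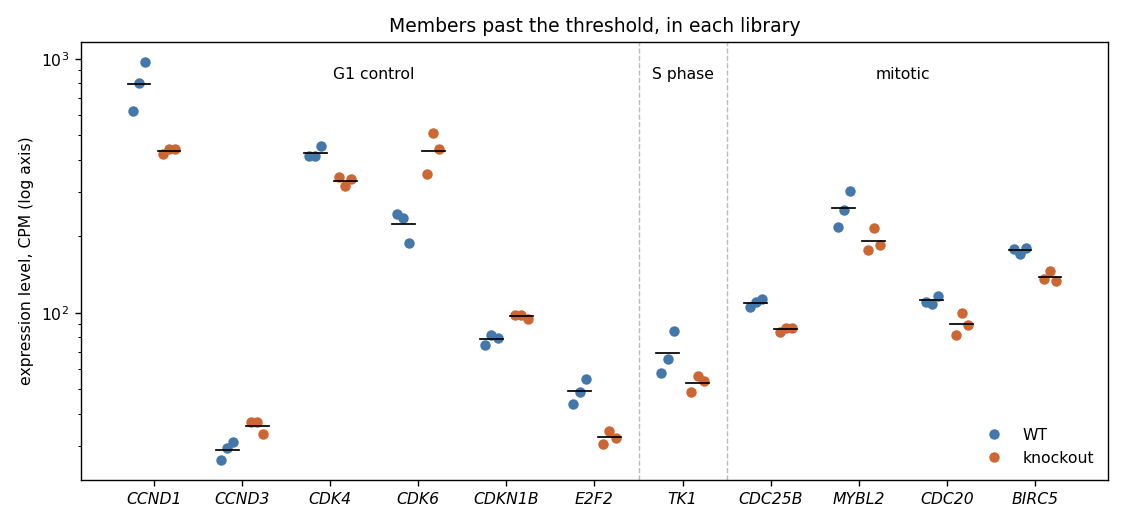
Level in CPM, on a log axis, of the 11 members past the threshold, with 1 point per library in WT and knockout and a line at each mean. The groups do not overlap for any of the 11, beside 41.7% of all genes tested without overlap. The 11 were picked by the test on these same values, so this adds no support. TK1, CCND3 and MYBL2 have the narrowest gaps.

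S phase members gave a single call. None of 14 was higher and 1, TK1, was lower, which is 7.14% called, beside 26% of all genes called and 11.5% lower. edgeR at an unadjusted p below 0.05 gave 0 higher and 2 lower, as did DESeq2 after adjustment. Of all 16403 genes tested, 3206 were higher and 2793 lower at that unadjusted cutoff, and 2300 and 1859 in DESeq2. The median was -0.15, and 11 of 14 values were below 0. The typical 95% interval was 0.32 on either side, so changes of that size were not detectable for many of these genes.

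The genes that license origins and unwind DNA gave no call in either direction (0 of 9 at an unadjusted p below 0.05 in edgeR, and 0 in DESeq2). Over all 16403 genes the unadjusted counts were 3206 higher and 2793 lower, and those of DESeq2 2300 and 1859. MCM7, a subunit of the MCM helicase and the S phase member of highest TPM, was at 320, 369 and 425 CPM in WT and 355, 398 and 356 CPM in the knockout. The knockout range lay inside the wider WT range. Its value was -0.01 ± 0.10 (95% interval -0.22 to 0.21, edgeR adjusted p = 0.971). The other MCM genes, MCM2 to MCM6, had values of -0.20 to 0.01. CDT1 and CDC6, which load the helicase, had 0.12 and -0.20, and CDC45, which activates it, -0.35 (-0.74 to 0.04). Likewise MCM6 and PCNA, whose E2F stretches are shown, did not pass, unlike E2F2. MCM7 shares exon sequence on the opposite strand with AP4M1.

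PCNA, the sliding clamp of the DNA polymerases and the S phase member of next highest TPM, was at 122, 140 and 188 CPM in WT and 108, 144 and 124 CPM in the knockout. WT replicate 3 stood above the other 5 libraries, which overlapped. Its value was -0.26 ± 0.15 (95% interval -0.59 to 0.08, edgeR adjusted p = 0.254).

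Of the enzymes of nucleotide supply, TK1 (chr17:78174079-78187204), the thymidine kinase that salvages thymidine, was at 58.0, 65.8 and 84.5 CPM in WT and 48.8, 56.3 and 54.0 CPM in the knockout. The highest knockout library was just under the lowest WT library. The change was -0.39 ± 0.13 (edgeR adjusted p = 0.0468). Without WT replicate 3 it was -0.23 (adjusted p = 0.154), and the call was also lost without WT replicate 2, knockout replicate 1 or knockout replicate 3 (adjusted p of 0.0837, 0.0899 and 0.115).

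TYMS, thymidylate synthase, had -0.33 (adjusted p = 0.0860) and passed in 5 of the alternatives. Its levels were 144, 170 and 194 CPM in WT and 116, 159 and 130.0 CPM in the knockout. Its exons overlap ENOSF1 and TYMSOS on the opposite strand. The ribonucleotide reductase subunits RRM1 and RRM2 had 0.03 and -0.27 and did not pass.

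The S phase count was not stable to the choice of libraries. It ran from 0 to 3 lower members when each library was left out in turn: 3 without WT replicate 1, 2 without knockout replicate 2, 1 with all libraries, and 0 without any one of the other 4. No S phase member was higher in any of those analyses.

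Of the 26 mitotic members none was higher, 4 were lower (CDC25B, MYBL2, CDC20 and BIRC5) and 22 did not pass. That is 15.4% called, all of them lower, beside 26% of all genes called and 11.5% lower. The count of 0 higher was also 0 at an unadjusted p below 0.05 in edgeR and 0 in DESeq2. Of all 16403 genes, 3206 and 2300 were higher by these 2 measures. The median was -0.05, with values from -0.42 to 0.21. The typical 95% interval was 0.25 on either side, so smaller changes were not detectable for many of the 22.

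Among genes of mitotic entry, CDC25B (chr20:3786951-3806115), the phosphatase that activates CDK1 at the G2 to M transition, was at 105, 110.1 and 114 CPM in WT and 83.9, 87.3 and 86.8 CPM in the knockout. Both groups were narrow and far apart. The change was -0.35 ± 0.07 (edgeR adjusted p = 0.00276). CCNB1, cyclin B1, the mitotic member of second highest TPM, was at 138, 134 and 138 CPM in WT and 108, 139 and 126 CPM in the knockout. Its WT libraries were nearly equal and lay inside the knockout range. Its value was -0.13 ± 0.09 (95% interval -0.33 to 0.06, edgeR adjusted p = 0.324). The remaining entry genes, CCNA2, CCNB2, CDK1, CDC25C, PLK1 and AURKA, had values of -0.19 to 0.03.

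The 2 transcription factors of the mitotic programme differed in their calls. MYBL2 (chr20:43667114-43716482), or B-MYB, was at 218, 254 and 300.4 CPM in WT and 176, 215 and 185 CPM in the knockout. The highest knockout library was just under the lowest WT library. The change was -0.42 ± 0.11 (edgeR adjusted p = 0.0200), and the call was lost without WT replicate 2, WT replicate 3 or knockout replicate 3 (adjusted p of 0.0590, 0.0809 and 0.0806). FOXM1 had -0.10 (95% interval -0.24 to 0.05) and did not pass, and the difference between these 2 genes was not tested.

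In the checkpoint and mitotic exit group, CDC20 (chr1:43358981-43363203) was at 110.1, 109 and 117 CPM in WT and 81.4, 99.5 and 89.2 CPM in the knockout, with no overlap. The change was -0.31 ± 0.08 (edgeR adjusted p = 0.0184). It did not pass without WT replicate 1, WT replicate 3 or knockout replicate 3 (adjusted p of 0.0511, 0.0729 and 0.0817), and it has 1 named pseudogene. UBE2C, the E2 enzyme that works with the same ubiquitin ligase, had the highest TPM of the mitotic members. It was at 75.8, 77.8 and 86.6 CPM in WT and 75.3, 89.4 and 76.1 CPM in the knockout, with the groups intermixed. Its value was 0.00 ± 0.09 (95% interval -0.19 to 0.20, edgeR adjusted p = 0.983). Of the 4 mitotic genes whose CHR stretches are shown, CDC20 alone passed, while PLK1, CCNB2 and KIF23 had values of -0.12, -0.02 and 0.02. The checkpoint kinases BUB1 and BUB1B had values of 0.03 and -0.05.

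Of 10 spindle, centromere and cytokinesis genes only BIRC5 (chr17:78214253-78225635), or survivin, a subunit of the chromosomal passenger complex, passed. It was at 178, 170 and 180.3 CPM in WT and 136, 146 and 133 CPM in the knockout. Both groups were narrow, and they did not overlap. The change was -0.35 ± 0.07 (edgeR adjusted p = 0.00258). AURKB, the kinase of the same complex, was below every WT library in every knockout library but by little (37.7, 37.7 and 44.8 against 37.5, 36.5 and 35.1 CPM), with -0.14 and an adjusted p of 0.324. The kinesins KIF11, KIF20A and KIF23 had values of -0.06 to 0.12, and CENPA, CENPF, TPX2 and NUSAP1 of -0.08 to 0.05. KIF23 is less certain than the others, since the transcript files hold 55.2% of its gene counts.

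MKI67, the proliferation marker Ki-67, and TOP2A, the DNA topoisomerase of mitotic chromosomes, were the 2 mitotic members with the highest values. MKI67 was at 177, 198 and 170.4 CPM in WT and 180.4, 236 and 209 CPM in the knockout. TOP2A was at 151, 169 and 155 CPM in WT and 142, 229 and 180 CPM in the knockout. In both genes the groups overlapped through knockout replicate 1, and neither passed (0.20 and 0.21, adjusted p of 0.173 and 0.307). Without knockout replicate 1 both did (0.29 and 0.37, adjusted p of 0.0211 and 0.0153), so the number of higher mitotic members went from 0 to 2. The number of lower ones ran from 2, without WT replicate 3 or knockout replicate 3, to 5, without knockout replicate 1 or 2.

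Replicate libraries of 1 genotype also differed from each other. All 14 S phase members were lowest in WT replicate 1 and highest in WT replicate 3, an order that 21.9% of all genes tested had. This order, and the one read in the knockout below, were picked after the members' values had been seen. The median difference between these 2 WT libraries was 0.57 on the log2 scale, beside -0.002 over all genes tested. The same order held for 10 of 16 G1 members, with a median difference of 0.26, and for 10 of 26 mitotic members (38.5%), with a median difference of 0.10. The differences between these groups were not tested.

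In the knockout, replicate 1 was lowest and replicate 2 highest for 13 of 14 S phase members and 21 of 26 mitotic members, with a median difference of 0.41 in each group, beside an order found in 28.8% of all genes and a median of -0.02. Among G1 members 9 of 16 had this order, with a median difference of 0.19. MCM6 shows the pattern, at 66.2, 88.9 and 109 CPM in WT and 71.9, 97.8 and 81.6 CPM in the knockout. CDK1, the kinase that drives mitosis, was spread more widely in the knockout than in WT, at 57.3, 63.0 and 73.2 CPM in WT and 45.9, 82.0 and 58.7 CPM in the knockout.

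CENPE, a kinesin-like motor of the kinetochore, ran against its group. It was at 19.0, 17.1 and 13.8 CPM in WT and 17.1, 9.87 and 12.2 CPM in the knockout, so in the knockout it was lowest in replicate 2, where most mitotic members were highest. It did not pass with all libraries (-0.35, adjusted p = 0.217) and passed without knockout replicate 1 (-0.59, adjusted p = 0.0171).

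**Figure D4:**
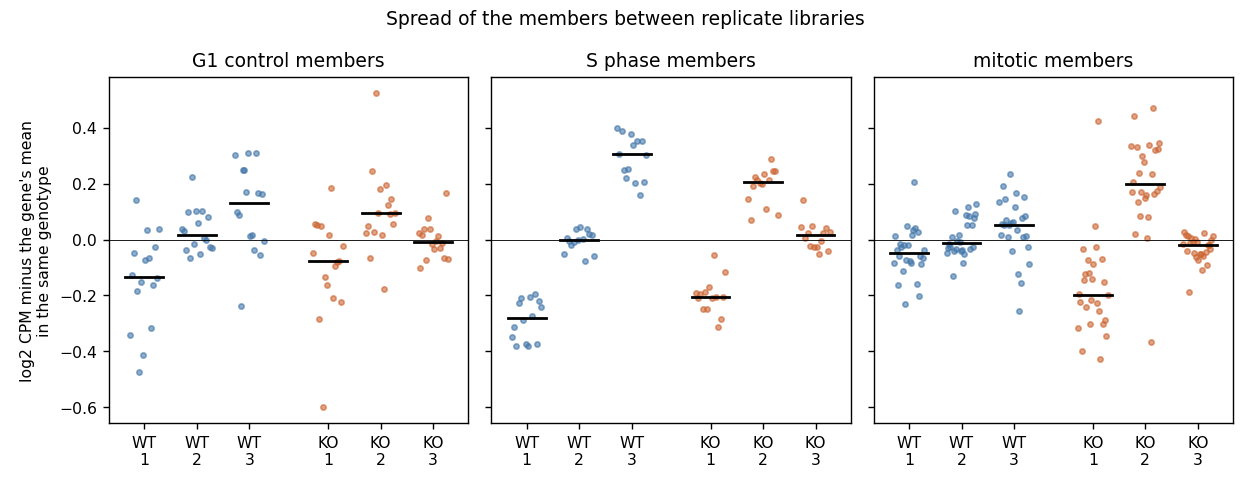
Deviation of each member's log2 CPM from its own mean in the same genotype, for 6 libraries and 3 groups, with 1 point per member and a line at the median. S phase members are at a median of -0.28 in WT replicate 1 and 0.30 in WT replicate 3, whereas mitotic members are at -0.05 and 0.05 there; in knockout replicates 1 and 2 both groups are near -0.20 and 0.20.

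Summed over members in CPM, each of the 3 groups overlapped between genotypes. The S phase sum was 1430, 1715 and 2066 CPM in WT and 1387, 1798 and 1568 CPM in the knockout. The mitotic sum was 2388, 2497 and 2567 CPM in WT and 2055, 2668 and 2285 CPM in the knockout. The ratio of S phase to mitotic sums was 0.599, 0.687 and 0.805 in WT and 0.675, 0.674 and 0.686 in the knockout, so it varied more among WT libraries. The G1 sum was 1849, 2090 and 2274 CPM in WT and 1710, 1908 and 1822 CPM in the knockout, while in TPM it was 1059, 1155 and 1206 in WT and 916, 915 and 925 in the knockout, with no overlap. The G1 sum in TPM rests largely on CDK4 and CCND1, the 2 G1 members of highest TPM. They had means of 479 and 275 TPM in WT and of 359 and 143 TPM in the knockout. It therefore does not describe the G1 members as a whole. These sums are descriptions with no test.

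A wider list of cell cycle genes that holds no member was read from the same fit. In G1 control, 1 of 20 tested genes was higher and 4 lower; in S phase 1 of 44 was higher and 6 lower; in mitosis 2 of 52 were higher and 1 lower. The medians were -0.06, -0.13 and -0.06. The shares called were 25%, 15.9% and 5.77%, beside 26% of all genes.

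Among G1 genes, CDKN2A, the locus of the CDK4 and CDK6 inhibitor p16, fell from 5.47, 5.18 and 5.83 CPM in WT to 1.38, 1.64 and 1.68 CPM in the knockout, with the groups far apart. The change was -1.81 ± 0.22 (edgeR adjusted p = 0.000121). CDKN1C, the inhibitor p57, fell by 0.58 (adjusted p = 0.00120), and CCNG1, cyclin G1, rose by 0.54 (adjusted p = 0.00132).

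In the S phase list PRIM2, the large subunit of DNA primase, rose from 24.6, 24.2 and 28.7 CPM to 45.7, 52.6 and 51.0 CPM, with no overlap. The change was 0.95 ± 0.10 (edgeR adjusted p = 4.84e-05), and PRIM2 has near-identical partial copies in the genome, so its counts are uncertain. RPA3, a subunit of the single-strand binding protein, and POLD2, a subunit of DNA polymerase delta, fell by 0.42 and 0.25 (adjusted p of 0.00431 and 0.0126).

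In the mitosis list HMMR, a spindle protein and hyaluronan receptor, was at 19.7, 19.7 and 19.8 CPM in WT and 23.7, 40.8 and 31.2 CPM in the knockout. The WT libraries were nearly equal and the knockout libraries spread as the mitotic members did, with replicate 1 lowest and replicate 2 highest. The change was 0.69 ± 0.17 (edgeR adjusted p = 0.0111). WEE1, the kinase that holds back CDK1, rose by 0.42 (adjusted p = 0.0126), and UBE2S, an E2 enzyme of the anaphase-promoting complex, fell by 0.26 (adjusted p = 0.0190). The lower count in this list ran from 0 without knockout replicate 3 to 7 without knockout replicate 2, and the higher count from 1 without any one WT library to 5 without knockout replicate 1. The lower S phase count ran from 1 without knockout replicate 3, 2 without WT replicate 3 and 3 without WT replicate 2 to 8. The higher G1 count was 2 without knockout replicate 1 or 2.

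The median log2 fold change of the tested genes within 5 Mb of a member lay between -0.11 and 0.20 over the 56 members. So no member that had passed sat in a stretch whose genes had shifted by as much as its own change. In the wider S phase list, RFC4 was 1 of the 6 lower genes, at -0.56 (edgeR adjusted p = 0.0276). The 49 tested genes within 5 Mb of RFC4 on chromosome 3 had a median of -0.48. Whether its fall is part of a shift of that stretch was not tested.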

How the data were processed

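Total RNA from SH-SY5Y cells, extracted with TRIzol and depleted of ribosomal RNA, was sequenced from stranded libraries, per the labels' protocols, in 3 WT and 3 DNAJC12 knockout samples. Tools listed in the submitters' processing notes are Salmon 1.10.0, cutadapt 3.5, DESeq2 1.42.1 and FastQC, with the build GRCh38.p14; the annotation release and strand setting are not given in the sources used here. Values of the gene table are unnormalized estimated counts, which the authors deposited as whole numbers. Per the file headers, the deposited transcript files hold estimated counts and TPM, which were assigned to genes through GENCODE release 29.

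Of 21071 rows, 403 repeats of the same gene were removed. Genotypes were compared with edgeR 4.0.16 in R 4.3.3 (filterByExpr, TMM, quasi-likelihood F-test, two-sided, adjusted over 16403 genes). SE was computed by dividing the size of the log2 fold change by the root of F, and 95% intervals use the same fit. Totals of 19321842 to 21869659 put 3 counts at 0.14 to 0.153 CPM. Replicates of a genotype differed beyond counting noise (chi-square per gene of 4.37 to 22.7), so no library was taken for a second deposit of another; this does not show that they are separate cultures. The fit was also run on counts simulated from its own means and dispersions, and the outcome is not given here. Promoter sequences are RefSeq's.

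The members and lists were chosen with earlier results of these data known. Per-library values are given for every member past the threshold and for the 2 members of highest TPM in each stage. Others are given where singled out after their values were seen. From each wider list the 3 genes with the smallest adjusted p are named, and RFC4 also, for its neighbours. Because reads are divided among similar transcripts, 12 members with named pseudogenes and 21 whose exons overlap another gene are less certain. Alternatives were DESeq2 1.42.0, other scalings, filters, count sources and thresholds, a replicate block, and each library left out.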

Additional observations from a re-analysis of the deposited data

How the results depend on the processing

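In all 14 alternatives CCND1, CDK4, CDK6, CDKN1B, E2F2, CDC25B and BIRC5 kept their direction and passed at 0.05, and no called member changed direction; CCND3, TK1, MYBL2 and CDC20 passed in 7, 8, 10 and 10 of them. Of 613 member results outside the threshold in both settings, 63 had the other sign. Over all genes tested, same-numbered libraries did not deviate together (correlations of 0.0591, -0.0297 and -0.0652). S phase members had median deviations of -0.28, -0.0006 and 0.30 in WT replicates 1, 2 and 3. In the knockout replicates these were -0.21, 0.21 and 0.01, so replicate 1 was lowest in both genotypes. Whether the numbers pair the libraries is not stated. With the numbers as a replicate block, 2 S phase members were lower (TK1 and TYMS), in place of 1. The number of lower S phase members was also 2 with DESeq2 or library size alone and 0 with gene counts rebuilt from transcripts (summed as they are or length-corrected) or a threshold of 0.01. With library size alone 5 G1 members were lower, and 3 genes of the wider mitosis list. Length-corrected counts gave 1424 genes higher and 1139 lower in all, 2 lower mitotic members, and 0 higher and 0 lower in the wider mitosis list, where plain transcript sums gave 1 higher. At 0.01, 1062 of all genes were lower, 2 mitotic members were lower, and the wider lists gave 2 lower in G1, 1 lower in S phase, and 0 higher and 0 lower in mitosis. With each library left out, lower genes ran from 1208 to 2150 in all, G1 members from 3 to 5, S phase members from 0 to 3 and mitotic members from 2 to 5; higher mitotic members ran from 0 to 2. In the wider lists, higher G1 genes ran from 1 to 2, lower S phase genes from 1 to 8, and mitosis genes from 1 to 5 higher and from 0 to 7 lower. The fewer calls at 0.01 follow from the stricter threshold; the cause of the other changes was not tested.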
